A study of Mus musculus with 12 samples.

Results

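The genes described here are 10 components of the epithelial adherens junction and its neighbours, chosen by gene name from the expression table: the cadherins Cdh1 and Cdh3, the catenins Ctnna1, Ctnnb1 and Ctnnd1, the nectins Nectin1, Nectin2 and Nectin4, the nectin-binding protein Afdn, and Epcam. All 10 were found once each among the 57180 genes of the table and all 10 were among the 14426 genes tested. The cells were HC11, an immortalised mouse mammary epithelial line, carrying either a knockdown of Snail1 (the protein of Snai1) or a control ("scr" in the titles), which the labels give as genotypes "Snail1 KD" and "WT". Cells were sorted, left to aggregate overnight in low-serum medium with EGF and insulin, and put through an in vitro migration assay. RNA was taken 36 h into the assay or at its start (0 h). The 4 groups of 3 libraries are knockdown at 36 h (libraries 1, 2 and 3), control at 36 h (1, 3 and 4), knockdown at 0 h (1, 2 and 3) and control at 0 h (1, 2 and 3). The labels name no separate cultures behind the libraries, so p-values cover only the spread between them, which may be technical. They also do not explain the "mix" that opens the title of control 36 h library 4. In the deposited table the mean given for control at 36 h leaves library 4 out, and a separate column equals that library alone. If that library is a pool, control at 36 h holds fewer independent samples. The values of that library lay between those of libraries 1 and 3 for 8 of the 10 genes (all but Afdn and Epcam) and for 55.3% of all tested genes.

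At an adherens junction the extracellular parts of classical cadherins bind those of the neighbouring cell. Their cytoplasmic tails hold beta-catenin, which in turn binds alpha-catenin and so links the junction to actin, while p120-catenin binds nearer the membrane and keeps cadherin at the surface. Nectins form a second adhesion system that reaches actin through afadin, and Epcam is a separate adhesion protein of epithelial cells. Snail1 is known as a transcriptional repressor that binds E-box sequences, and Cdh1 is its best-known target in epithelial cells.

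Levels are TPM, a read share divided by gene length and set to the same total in every library, so that genes can be compared with each other. Changes are log2 fold changes of log2(TPM + 1) with their standard error (SE), from limma fitted to all 12 libraries, and a gene was called at a Benjamini-Hochberg adjusted p under 0.05 over all tested genes. This fit holds 1 variance per gene for all 4 groups. The median SD of all tested genes was 0.62 in the knockdown at 0 h, but 0.16 to 0.21 in the other groups. The SE at 36 h therefore carries that wide spread, and the SE at 0 h is narrowed by the tighter groups. Read depth is unknown, since TPM does not keep it. Snai1 lay at 0.20 to 0.580 TPM in the knockdown and 2.69 to 3.92 TPM in control at 36 h, and at 0.480 to 0.790 TPM in the knockdown and 1.34 to 2.51 TPM in control at 0 h. The groups did not overlap at either time (exact two-sided permutation p = 0.1 each, the smallest that 3 against 3 can give), and limma called Snai1 lower at 36 h, by -1.55 (adjusted p = 0.0105). The 0 h change of -0.80 was called as well (limma adjusted p = 0.0348), but not with the scaling described next (-0.51, adjusted p = 0.191). Knockdown 0 h library 2 stood apart from the rest. Mitochondrially encoded genes took 14.0% of its TPM, against 1.45% to 6.15% in the other libraries, and its median-of-ratios factor (the typical level of a gene relative to the other libraries) was 0.507, against 0.902 to 1.22. Knockdown 0 h library 3 differed in another way. It had 27715 genes above 0 TPM, against 20932 to 23427 in all other libraries. Its mitochondrial share (1.97%) and factor (1.06) lay within the ranges above. The median change of all tested genes, knockdown minus control, was -0.09 at 36 h and -0.41 at 0 h. Dividing each library by its factor (median-of-ratios scaling) made it 0.01 and 0.02, so both scales are given. Some results of the 10 genes are also given without knockdown 0 h library 2 or without library 3, while those of the lists of related genes are given only with both. The keratins Krt5 and Krt14 were at or above 768 and 2206 TPM in every library. Of markers of other cells, the immune gene Ptprc stayed at or under 0.170 TPM, the endothelial Cdh5 at or under 0.0200 TPM, and the adipocyte gene Adipoq was at 0 in every library. The 3 endothelial markers together summed to 4.36 to 6.82 TPM in the knockdown and 3.54 to 7.02 TPM in control at 36 h. At 0 h they summed to 0.49 to 3.89 TPM in the knockdown and 2.97 to 3.86 TPM in control. The 7 fibroblast markers summed to 7.97 to 13.8 TPM in the knockdown and 13.3 to 24.4 TPM in control at 36 h, and to 4.78 to 16.0 TPM in the knockdown and 15.4 to 17.9 TPM in control at 0 h. The 4 immune markers, mostly Cd68, summed to 2.11 to 2.42 TPM in the knockdown, against 3.16 to 3.85 TPM in control, at 36 h, and to 5.35 to 10.3 TPM in the knockdown, against 9.81 to 14.7 TPM in control, at 0 h. The 5 mammary keratins of the epithelial marker list summed to 18826.4 to 24735.1 TPM in the knockdown, against 15078.7 to 17716.4 TPM in control, at 36 h, and to 3046.6 to 9131.9 TPM in the knockdown, against 8713.0 to 8891.4 TPM in control, at 0 h. The part of these markers in the results was not tested. In bulk RNA, fewer cells with a transcript and less of it per cell cannot be told apart.

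The order of the levels was nearly the same in every group. By its mean, Epcam was the most abundant, followed by Ctnnb1, Cdh1 and, except in the knockdown at 0 h, Ctnna1. In control at 0 h the means were 1124.4 TPM for Epcam, 543 TPM for Ctnnb1, 296 TPM for Cdh1 and 151 TPM for Ctnna1, with no overlap between neighbours. Afdn, Nectin4 and Ctnnd1 followed at 61.6, 57.4 and 51.1 TPM, and their ranges touched in that order, so these neighbours were not separated beyond their spread. Nectin2 (13.7 TPM), Cdh3 (6.49 TPM) and Nectin1 (4.35 TPM) were the lowest. In the knockdown at 36 h, Cdh3 (2.72 TPM) stood below Nectin1 (3.53 TPM), but their ranges overlapped. In the knockdown at 0 h the ranges of Epcam, Ctnnb1 and Cdh1 overlapped from neighbour to neighbour, and the mean of Afdn (54.8 TPM) stood above that of Ctnna1 (46.2 TPM), also with overlap.

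**Figure D1:**
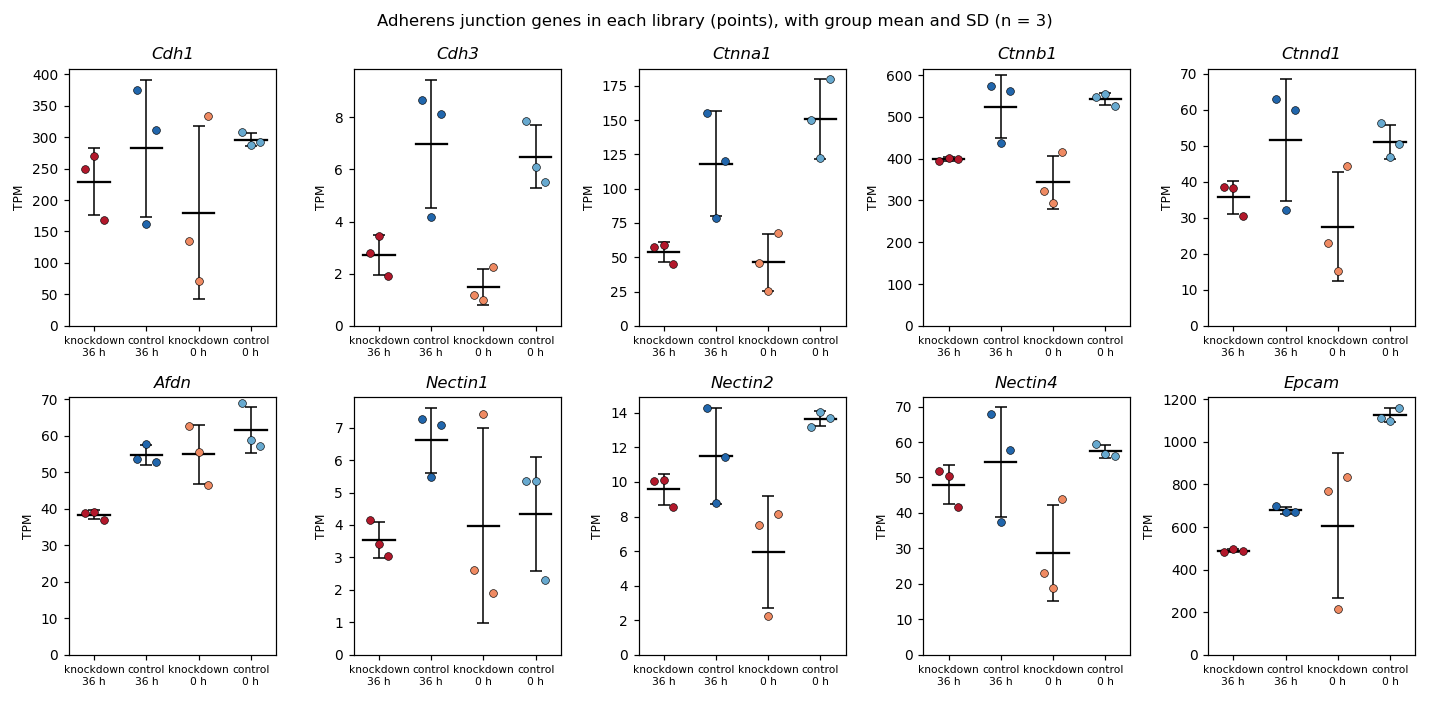
TPM of the 10 adherens junction genes (one panel each, axis from 0) in every library (points), for knockdown and control at 36 h and at 0 h, with the group mean (long bar) and SD (whiskers, n = 3). Ctnna1, Cdh3, Ctnnb1 and Epcam lie lower in the knockdown at both times without overlap, while Cdh1 in the knockdown at 0 h spreads from 71.0 to 334 TPM. Taking each time alone, 22% of all tested genes lie lower without overlap at 36 h and 30.7% at 0 h. The share that does so at both times was not computed.

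At 0 h, before migration, 5 of the 10 genes fell in the knockdown and none rose, where 14.6% of all tested genes were called lower and 3.1% higher. The 5 were Ctnna1, Cdh3, Nectin2, Nectin4 and Ctnnb1. The median change of the 10 was -1.03, against -0.41 for all tested genes. With scaling, 3 of the 10 were called (Ctnna1, Cdh3 and Nectin2), where 10.2% of all genes were called lower and 8.66% higher, and the median was -0.53 against 0.02. Without overlap, 7 of the 10 lay below control (30.7% of all tested genes did so), which adds Ctnnd1 and Epcam to the 5, and none lay above it (7.24%). With 1 library left out, the count of called genes ran from 2, without any one of the control 0 h libraries, to 8, without knockdown 0 h library 3. It was 3 without control 36 h library 4 or without any one of the knockdown 36 h libraries. Only Ctnna1 and Cdh3 were called in each of these 12 fits, which called 755 to 5869 of all tested genes. With the replicate number as a block, 2 of the 10 were called, beside 1011 of all genes. With no filter on low values, 2 of the 10 were called, beside 1258 of all genes. None of the 10 was called in a fit of only the 0 h groups, where limma called 16 of all genes.

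At 36 h none of the 10 was called by limma, where 1.64% of all tested genes were called lower and 0.894% higher. An unadjusted p under 0.05 was found for 3 of the 10, and for 2345 of all 14426 tested genes. All 10 values were negative, with a median of -0.47 against -0.09 for all tested genes. In 6 of the 10 (Cdh3, Ctnna1, Ctnnb1, Afdn, Nectin1 and Epcam) the knockdown libraries lay below control without overlap, as did 22% of all tested genes, and none lay above it (14.8%). With scaling, Ctnna1 and Cdh3 were called, where 3.44% of all genes were called lower. In the fit without knockdown 0 h library 2, 5 of the 10 were called lower at 36 h, and in the fit without control 36 h library 3, only Cdh3 was. Over all fits with 1 library left out, 24 to 2699 of all tested genes were called at 36 h. A fit of only the 36 h groups, whose variance leaves out the wide knockdown at 0 h, called 4 of the 10. The share of all genes called in that fit is not given here.

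**Figure D2:**
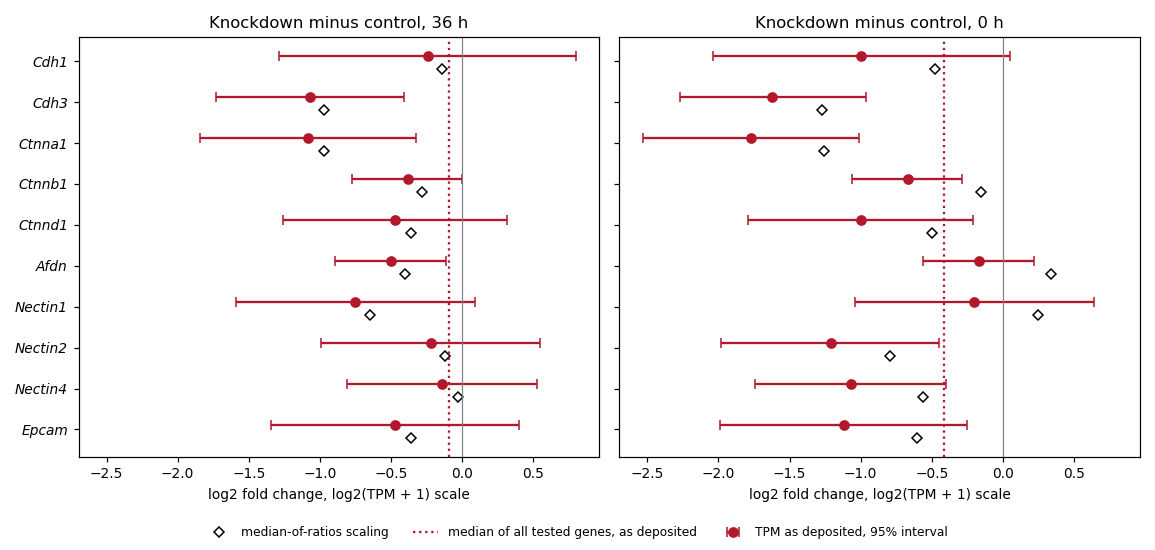
Log2 fold change (log2(TPM + 1) scale) of each gene, knockdown minus control, at 36 h (left) and 0 h (right), as deposited with the 95% interval (circles) and with median-of-ratios scaling (diamonds). The dotted line is the median of all tested genes, at -0.09 and -0.41, and at 0 h the values of Afdn and Nectin1 turn positive with scaling (0.34 and 0.25).

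Cdh1 (ENSMUSG00000000303) encodes E-cadherin, the main cadherin of luminal and most other epithelia. Its 36 h levels were 249.5, 270 and 169 TPM in knockdown libraries 1, 2 and 3, against 374, 162 and 311 TPM in control libraries 1, 3 and 4. All 3 knockdown libraries lay inside the range of control. The change was -0.24 (SE 0.477, limma adjusted p = 0.888), with a 95% interval from -1.29 to 0.80. Its 0 h levels were 135, 71.0 and 334 TPM in knockdown libraries 1, 2 and 3, against 308, 288 and 292 TPM in control libraries 1, 2 and 3. Knockdown libraries 1 and 2 were below every control library and library 3 was above every one. The change of -1.0 (SE 0.477, limma adjusted p = 0.150, 95% interval -2.04 to 0.05) was not called. It was -0.48 with scaling (adjusted p = 0.297), -0.47 without knockdown library 2 (adjusted p = 0.424) and -1.58 without knockdown library 3, where it was called (adjusted p = 0.0109). Leaving out each remaining library gave -1.02 to -0.93.

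The spread of Cdh1 was the largest of the 10 genes. Its pooled within-group SD on the log2(TPM + 1) scale was 0.67, larger than that of 88.9% of all tested genes, whose median was 0.39. That spread differed from group to group. The SD was 0.36 in the knockdown and 0.63 in control at 36 h, and 1.11 in the knockdown and 0.05 in control at 0 h. The median SD of all tested genes in these groups was 0.18, 0.21, 0.62 and 0.16. Highest over lowest library was 1.60-fold in the knockdown and 2.31-fold in control at 36 h, and 4.70-fold in the knockdown and 1.07-fold in control at 0 h. By SD on the log2(TPM + 1) scale, Cdh1 was among the tightest of the 10 in control at 0 h and the widest in the other groups. In the knockdown at 36 h Cdh3 was wider by highest over lowest library, at 1.78-fold.

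Cdh3 (ENSMUSG00000061048) encodes P-cadherin, the cadherin of basal and myoepithelial mammary cells, and in the RefSeq annotation it is the neighbouring coding gene of Cdh1 on chromosome 8. Its levels were low. They were 2.79, 3.43 and 1.93 TPM in knockdown libraries 1, 2 and 3 at 36 h, against 8.65, 4.16 and 8.14 TPM in control libraries 1, 3 and 4. The 0 h libraries held 1.19, 0.990 and 2.26 TPM in the knockdown, against 7.85, 6.10 and 5.52 TPM in control. Every knockdown library was below every control library at both times. At 0 h it fell to 22.8% of control (-1.62, SE 0.299, limma adjusted p = 0.00706), and with scaling the change was -1.27 (adjusted p = 0.00642). A fit of only the 0 h groups lost the call (adjusted p = 0.0719). At 36 h the mean was 38.9% of control, and the change of -1.07 (SE 0.299, limma adjusted p = 0.0900) was called with scaling (-0.97, adjusted p = 0.0415) and without control library 3 (-1.36, adjusted p = 0.0481) or knockdown 0 h library 2 (-1.07, adjusted p = 0.0260).

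Within a library, the ratio of the cadherins does not depend on how libraries are scaled. These ratios were chosen after the levels were seen and are given without a test. There were 89.4, 78.7 and 87.4 TPM of Cdh1 per TPM of Cdh3 in the knockdown at 36 h, against 43.3, 39.0 and 38.2 in control. At 0 h the ratios were 114, 71.7 and 148 in the knockdown, against 39.2, 47.2 and 52.9 in control. Knockdown and control did not overlap at either time, and knockdown 0 h library 2, the lowest of its group, was still above all 6 control libraries.

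Ctnna1 (ENSMUSG00000037815) encodes alpha-E-catenin, the actin-binding catenin. Its level was 57.3, 58.8 and 45.3 TPM in knockdown libraries 1, 2 and 3 at 36 h, against 155, 78.8 and 120 TPM in control libraries 1, 3 and 4. Among 0 h libraries it was 45.6, 25.6 and 67.4 TPM in the knockdown, against 150, 122 and 180 TPM in control. The highest knockdown library of either time was below the lowest control library of either time. At 0 h it fell to 30.6% of control (-1.77, SE 0.346, limma adjusted p = 0.00862), with -1.26 on scaling (adjusted p = 0.00257) and -1.41 without knockdown library 2 (adjusted p = 0.00584). It was not called in a fit of only the 0 h groups (adjusted p = 0.0941). At 36 h the mean was 45.5% of control, and the change of -1.08 (SE 0.346, limma adjusted p = 0.137) was called with scaling (-0.97, adjusted p = 0.0196) and without knockdown 0 h library 2 (-1.08, adjusted p = 0.0145).

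Ctnnb1 (ENSMUSG00000006932) encodes beta-catenin, which also acts as the nuclear effector of Wnt signalling. It had 394, 403 and 399.5 TPM in knockdown libraries 1, 2 and 3 at 36 h, against 573, 437 and 562 TPM in control libraries 1, 3 and 4. The groups did not overlap, and the mean was 76.0% of control (-0.38, SE 0.175, limma adjusted p = 0.309). In 0 h libraries it had 322, 294 and 416 TPM in the knockdown, against 548, 555 and 526 TPM in control, again without overlap. It fell to 63.3% of control (-0.67, SE 0.175, limma adjusted p = 0.0258), a change that was -0.15 with scaling (adjusted p = 0.553). Fits without any one of the control 0 h libraries also lost the call (adjusted p of 0.0693 to 0.0898). With scaling and without knockdown 0 h library 2, the 0 h change was -0.36 and was called (adjusted p = 0.0251). After Afdn, Ctnnb1 had the smallest spread of the 10, with a pooled SD of 0.17.

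Ctnnd1 (ENSMUSG00000034101) encodes p120-catenin. Its level at 36 h was 38.6, 38.2 and 30.4 TPM in knockdown libraries 1, 2 and 3, against 62.9, 32.2 and 59.95 TPM in control libraries 1, 3 and 4, so that the groups overlapped through control library 3. Its level at 0 h was 23.0, 15.1 and 44.4 TPM in the knockdown, against 56.2, 46.8 and 50.4 TPM in control, without overlap. The changes of -0.47 at 36 h (SE 0.360, limma adjusted p = 0.613) and -1.0 at 0 h (SE 0.360, adjusted p = 0.0735) were not called. The 0 h change was -0.50 with scaling (adjusted p = 0.127), -0.65 without knockdown 0 h library 2 (0.156) and -1.40 without knockdown 0 h library 3, where it was called (0.00798).

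Ratios of the catenins were likewise chosen after the levels were seen and are given without a test. There was 0.146, 0.146 and 0.113 TPM of Ctnna1 per TPM of Ctnnb1 in the knockdown at 36 h, against 0.271, 0.180 and 0.214 in control. The ratio was 0.141, 0.0870 and 0.162 in the knockdown at 0 h, against 0.274, 0.220 and 0.342 in control. Per TPM of Cdh1, Ctnna1 averaged 0.239 ± 0.0266 in the knockdown and 0.429 ± 0.0509 in control at 36 h, and 0.300 ± 0.0854 in the knockdown and 0.509 ± 0.0975 in control at 0 h (SD, n = 3 each). Neither ratio of Ctnna1 overlapped between knockdown and control at either time, and its levels alone did not overlap either. The share of other gene pairs with such ratios was not computed. Ctnnd1 per Cdh1, by contrast, averaged 0.159 ± 0.0199 in the knockdown and 0.186 ± 0.0163 in control at 36 h, and 0.172 ± 0.0397 in the knockdown and 0.172 ± 0.0101 in control at 0 h, with overlap at both times. Across all 12 libraries this ratio stayed between 0.133 and 0.212 while Cdh1 itself ranged from 71.0 to 374 TPM. The ratios Cdh1 per Ctnnb1, Epcam per Cdh1 and Nectin4 per Nectin2 were also computed, and each overlapped between knockdown and control at both times.

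**Figure D3:**
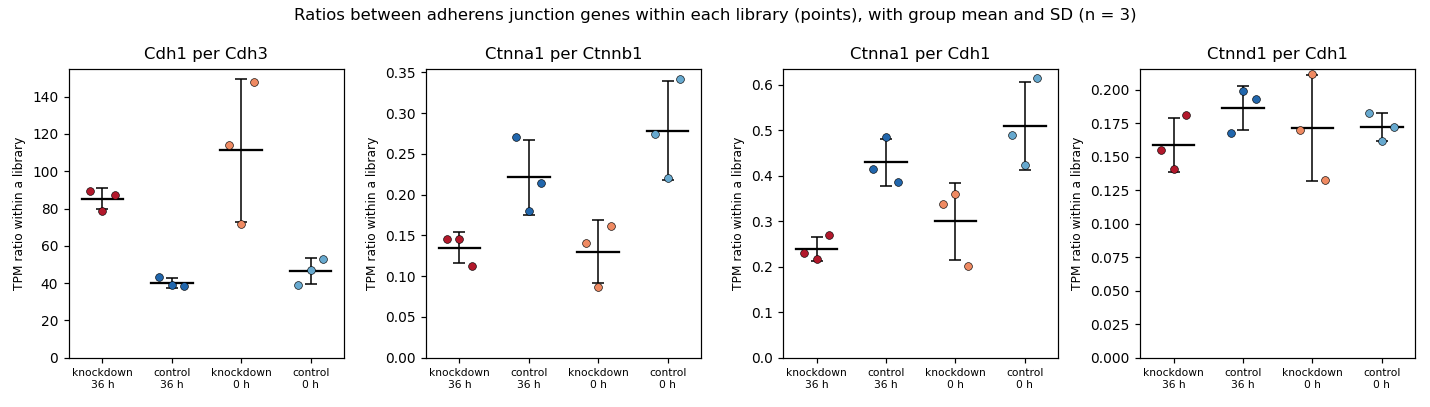
Ratio of TPM between pairs of adherens junction genes within each library (points, axis from 0), with group mean and SD (n = 3). Cdh1 per Cdh3 is higher in the knockdown at both times (78.7 to 89.4 against 38.2 to 43.3 at 36 h), Ctnna1 per Ctnnb1 and per Cdh1 are lower, and Ctnnd1 per Cdh1 overlaps.

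Among the nectins, Nectin2 and Nectin4 fell at 0 h and Nectin1 was not called. Nectin4 (ENSMUSG00000006411), a nectin of epithelia and placenta, was the most abundant of these nectins. It stood at 51.9, 50.4 and 41.7 TPM in knockdown libraries 1, 2 and 3, against 67.9, 37.5 and 57.7 TPM in control libraries 1, 3 and 4, at 36 h, with overlap. The 0 h levels were 23.1, 18.9 and 44.0 TPM in the knockdown, against 59.5, 56.6 and 56.1 TPM in control, without overlap. It fell to a mean of 28.7 TPM in the knockdown at 0 h, against 57.4 TPM in control (-1.07, SE 0.306, limma adjusted p = 0.0360). The call was lost with scaling (-0.56, adjusted p = 0.0643) and when any one library other than control 36 h library 1 or 3 or knockdown 0 h library 3 was left out (adjusted p between 0.0515 and 0.110). At 36 h the change was -0.14 (adjusted p = 0.902).

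Nectin2 (ENSMUSG00000062300), which binds other nectins and immune-cell receptors, stood at 10.0, 10.1 and 8.56 TPM in knockdown libraries 1, 2 and 3, against 14.3, 8.78 and 11.4 TPM in control libraries 1, 3 and 4, at 36 h, with overlap. The 0 h libraries had 7.49, 2.23 and 8.16 TPM in the knockdown, against 13.2, 14.1 and 13.7 TPM in control, without overlap. It fell to 43.7% of control at 0 h (-1.21, SE 0.350, limma adjusted p = 0.0364), and was called with scaling as well (-0.79, adjusted p = 0.0256). Leaving out any one of the control 0 h libraries lost the call (adjusted p of 0.0975 to 0.0993), as did leaving out library 4 of control at 36 h (0.0566) or any one of the 3 knockdown libraries at 36 h (0.0533 to 0.0560). With scaling and without knockdown 0 h library 2, the 0 h change was -0.55 (adjusted p = 0.0227). At 36 h the change was -0.22 (adjusted p = 0.854).

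Nectin1 (ENSMUSG00000032012) encodes a nectin that is also an entry receptor for herpes simplex virus. Its 36 h levels were 4.14, 3.42 and 3.03 TPM in knockdown libraries 1, 2 and 3, against 7.27, 5.47 and 7.09 TPM in control libraries 1, 3 and 4, without overlap (-0.75, SE 0.384, limma adjusted p = 0.382). Its 0 h levels were 2.61, 7.43 and 1.9 TPM in the knockdown, against 5.36, 5.37 and 2.31 TPM in control. Knockdown library 2, the lowest for 8 of the 10 genes, was the highest of all 12 libraries for Nectin1. The 0 h change of -0.20 was not called (adjusted p = 0.708) and was 0.25 with scaling.

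Afdn (ENSMUSG00000068036) encodes afadin, which ties nectins to actin and to the catenins. It had the smallest spread of the 10 genes, with a pooled SD of 0.14, smaller than in all but 2.30% of tested genes. Its level was 38.9, 39.1 and 36.9 TPM in the knockdown at 36 h, against 53.5, 57.8 and 52.7 TPM in control, without overlap. The mean was 70.0% of control, and the change of -0.50 (SE 0.178, limma adjusted p = 0.178) was called in the fits without knockdown 0 h library 2 (adjusted p = 0.0182) and of only the 36 h groups (adjusted p = 0.0170). The 0 h values were 62.7, 55.5 and 46.4 TPM in the knockdown, against 68.8, 58.9 and 57.1 TPM in control, with overlap, and the change of -0.17 (adjusted p = 0.483) was 0.34 with scaling. Afdn and Nectin1 were the only members above the median of all genes at 0 h.

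Epcam (ENSMUSG00000045394), the epithelial cell adhesion molecule, was tight in 3 of the groups and wide in the knockdown at 0 h. Libraries at 36 h held 483, 498 and 486 TPM in knockdown libraries 1, 2 and 3, against 697, 671 and 669 TPM in control libraries 1, 3 and 4. Libraries at 0 h held 769, 214 and 833 TPM in the knockdown, against 1114, 1098 and 1161 TPM in control. The groups did not overlap at either time, and knockdown 0 h library 2 was the lowest of all 12. The changes of -0.47 at 36 h (SE 0.397, limma adjusted p = 0.654) and -1.12 at 0 h (SE 0.397, adjusted p = 0.0702) were not called over all 12 libraries. Without knockdown 0 h library 2 they were -0.47 (adjusted p = 0.00110) and -0.49 (adjusted p = 0.00123), both called. With scaling they were -0.36 at 36 h (adjusted p = 0.439) and -0.60 at 0 h (0.0950), and with scaling and without that library -0.36 (0.0288, called) and -0.29 (0.0884). The 0 h change was also called without knockdown 0 h library 1 (-1.41, adjusted p = 0.0423) or 3 (-1.47, adjusted p = 0.0165).

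Promoter windows from RefSeq (build GRCm38.p6, 250 bases before to 50 after an annotated start) were searched for the E-box CAGGTG and its reverse complement CACCTG, the core that Snail1 is known to bind. Windows of 6 of the 10 genes were searched (Ctnnb1, Ctnnd1, Afdn, Nectin2, Nectin4 and Epcam), and the E-box was in those of Epcam and Nectin2. Cdh1, Cdh3, Ctnna1 and Nectin1 were not part of the search. Of all 32851 promoter windows of the same length, 20.2% held at least 1 and 2.88% held at least 2. Ctnnb1, Ctnnd1 and Nectin4 also lay lower in the knockdown at 0 h without overlap, as Epcam and Nectin2 did, and have no match. The windows with matches are shown to place them, with the E-box in capitals and positions counted from -1 for the base before the start. Epcam (chr17:87635729-87636028, plus strand) has CACCTG at -187 and CAGGTG at -19. Nectin2 (chr7:19749524-19749823, minus strand) has CAGGTG at -53.
Epcam: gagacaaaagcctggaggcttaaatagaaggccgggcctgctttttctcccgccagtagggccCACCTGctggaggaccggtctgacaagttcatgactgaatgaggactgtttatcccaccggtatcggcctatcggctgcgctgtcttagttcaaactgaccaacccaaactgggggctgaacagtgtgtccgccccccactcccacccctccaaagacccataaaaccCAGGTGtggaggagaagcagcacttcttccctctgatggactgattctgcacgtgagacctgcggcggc
Nectin2: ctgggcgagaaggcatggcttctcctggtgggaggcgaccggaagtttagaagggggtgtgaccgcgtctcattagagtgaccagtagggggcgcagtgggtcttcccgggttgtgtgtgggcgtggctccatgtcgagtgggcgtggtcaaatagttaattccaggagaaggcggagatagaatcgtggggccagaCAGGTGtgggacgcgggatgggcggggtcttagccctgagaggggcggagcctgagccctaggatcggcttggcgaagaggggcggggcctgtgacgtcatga
A match describes these letters only. Binding was not measured.

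Over the 36 h of migration, limma called none of the 10 genes in either line. In the knockdown 2 of the 10 had an unadjusted p under 0.05, beside 2363 of all 14426 tested genes. In control none of the 10 had one, beside 803 of all tested genes. All tested genes were called at 1.12% in the knockdown and 0.36% in control. The time comparisons share their groups with the knockdown comparisons above. Epcam was the gene with the lowest p in control, at 679 ± 15.8 TPM at 36 h and 1124.4 ± 33.1 TPM at 0 h (SD, n = 3 each; -0.73, SE 0.397, adjusted p = 1.00). Control libraries at 36 h were all below those at 0 h. Without knockdown 0 h library 2, Epcam was called lower at 36 h in control (-0.73, adjusted p = 4.15e-04) and in the knockdown (-0.71, adjusted p = 6.72e-04). Over all libraries its knockdown change was -0.08 (adjusted p = 0.908).

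In control only Nectin1 stood higher at 36 h than at 0 h without overlap (0.56, 95% interval -0.28 to 1.40, limma adjusted p = 1.00), as did 9.55% of all tested genes, and only Epcam stood lower, as did 12.3%. In the knockdown, Afdn stood lower at 36 h without overlap (-0.50, limma adjusted p = 0.236), as did 3.91% of all tested genes, and Nectin2 stood higher (0.74, adjusted p = 0.312), as did 15%. Afdn averaged 38.3 ± 1.20 TPM in the knockdown at 36 h and 54.8 ± 8.19 TPM at 0 h, and in control 54.7 ± 2.72 TPM at 36 h and 61.6 ± 6.34 TPM at 0 h (SD, n = 3 each). With scaling the knockdown change of Afdn was -0.89 (adjusted p = 0.137). Nectin4 had the second of the unadjusted p-values under 0.05 in the knockdown (0.81, SE 0.306, adjusted p = 0.256), and was called without knockdown 0 h library 3 (1.15, adjusted p = 0.0337). The median of all tested genes moved by 0.33 in the knockdown over time and by 0.00 with scaling, and the median of the 10 by 0.40 and 0.01.

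The difference between the 36 h changes, knockdown minus control, was called for none of the 10 and for none of all 14426 genes by limma, with an unadjusted p under 0.05 for none of the 10 and for 766 of all genes. On the TPM as deposited the largest differences were 0.99 for Nectin2 (95% interval -0.09 to 2.08) and 0.93 for Nectin4 (-0.02 to 1.88), both with an adjusted p of 0.595. With scaling they were 0.67 and 0.53, and those of Nectin1 (-0.90, adjusted p = 0.654) and Afdn (-0.74, 0.648) were larger in size. A loss at 0 h that was not called at 36 h is therefore not shown to differ between the times for Nectin2, Nectin4 or Ctnnb1.

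Outside control at 0 h, most of the 10 genes had the same lowest library within a group, and so did a large part of all tested genes. In control at 0 h, libraries 1, 2 and 3 were the lowest for 1, 4 and 5 of the 10. Within the knockdown at 0 h, library 2 was the lowest for 8 of the 10 (all but Afdn and Nectin1) and library 3 the highest for the same 8, while library 2 was the lowest for 67% of all tested genes and library 3 the highest for 53.9%. In control at 36 h, library 3 was the lowest for 8 of the 10 (all but Afdn and Epcam), and for 57.3% of all tested genes. Knockdown 36 h library 3 was likewise the lowest of its group for 8 of the 10, all but Ctnnb1 and Epcam, and for 44.4% of all tested genes. Cdh1 deviated from its group mean by -1.05 in knockdown 0 h library 2, 1.17 in library 3 and -0.71 in control 36 h library 3, and Ctnnd1 by -0.69, 0.81 and -0.61 in the same libraries. Epcam deviated by -1.26 in knockdown 0 h library 2 but by only -0.02 in control 36 h library 3.

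**Figure D4:**
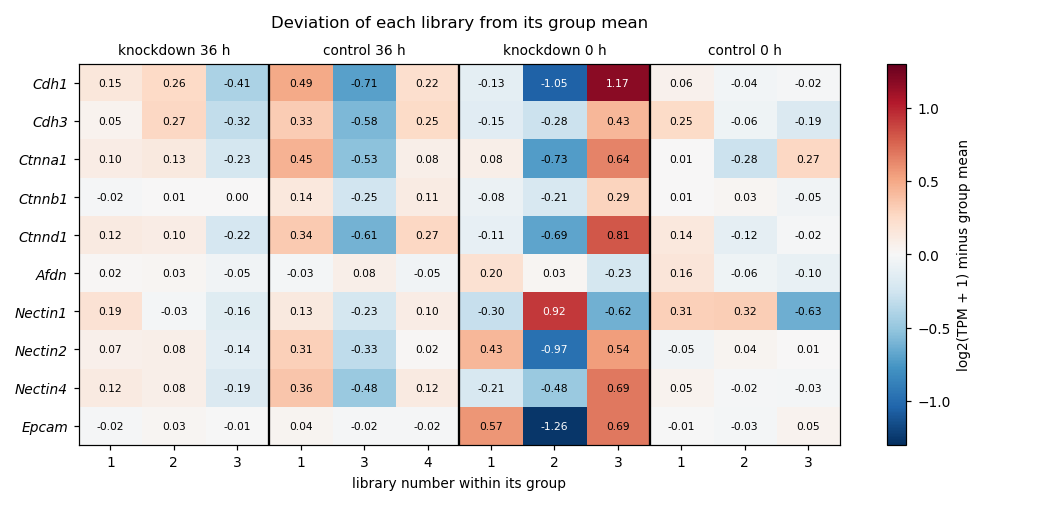
Deviation of log2(TPM + 1) from the group mean for each gene (rows) in each library (columns, numbered within their group), red above and blue below the mean. Knockdown 0 h library 2 is blue for all but Afdn and Nectin1 and control 36 h library 3 for all but Afdn, with Cdh1 at -1.05 and -0.71, and Nectin1 is red (0.92) in knockdown 0 h library 2.

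Likeness of profile was measured as the root mean square difference of mean-centred log2(TPM + 1) over the 12 libraries, as a description. Between members, Ctnnd1 and Nectin4 were the closest (0.17), then Cdh1 and Ctnnd1 (0.19), and Cdh3 was nearest to Ctnna1 (0.30). Among 9366 other genes, all averaging 5 TPM or more, the nearest to Cdh1 were Mbtps1, Bicd2 and Rbsn, each at 0.11, while Cdh1 itself varied by 0.66 about its mean. The nearest to Cdh3 were Top2a (0.12), Mcm10 and Ehd2 (both 0.13). Tnfaip8l1, Cldn3 (both 0.15) and Stard3 (0.17) were nearest to Epcam. All these values share the same 12 libraries and their scaling.

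The rest of the pathway was described with 9 lists of related genes, whose counts at 0 h stand against 14.6% of all tested genes called lower, and 10.2% with scaling. Among other cadherins, 7 of 15 were tested and 2 fell at 0 h, the protocadherin Pcdh7 (5.25 ± 1.07 TPM in knockdown libraries and 14.2 ± 3.08 TPM in control ones, SD, n = 3 each as below; -1.28, limma adjusted p = 0.0172) and Cdh13, T-cadherin (22.3 ± 6.34 TPM in knockdown libraries and 43.7 ± 9.06 TPM in control ones, -0.96, adjusted p = 0.0273). Neither was called with scaling (adjusted p = 0.0904 and 0.103). Cdh2, N-cadherin of mesenchymal cells, averaged 2.62 ± 2.09 TPM in knockdown libraries and 3.93 ± 0.469 TPM in control ones and was not called (-0.59, adjusted p = 0.260). Of catenin relatives, 1 of 6 tested fell, a share near that of all genes. It was Jup (plakoglobin, which also binds cadherin tails), which averaged 287 ± 146 TPM in knockdown libraries and 703 ± 51.2 TPM in control ones (-1.45, adjusted p = 0.0210, and -0.93 with scaling, adjusted p = 0.00897). Of nectin relatives, 3 of 4 fell. These were Cadm1 (-1.72, adjusted p = 0.0185), Nectin3 (16.0 ± 8.87 TPM in knockdown libraries and 35.9 ± 2.95 TPM in control ones, -1.29, adjusted p = 0.0343) and Pvr (-0.82, adjusted p = 0.0467), of which only Pvr was not called with scaling (adjusted p = 0.236).

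Proteins that link the junction to actin gave 7 of 20 lower at 0 h and 5 with scaling, with a median of -0.95 and of -0.45 with scaling. The 4 with the lowest adjusted p were Sorbs3 (vinexin, 0.683 ± 0.382 TPM in knockdown libraries and 3.57 ± 0.285 TPM in control ones, -1.46, limma adjusted p = 0.00239), Lima1 (EPLIN, which binds alpha-catenin, 25.9 ± 8.89 TPM in knockdown libraries and 71.3 ± 6.09 TPM in control ones, -1.47, adjusted p = 0.00728), Zyx (zyxin, 29.1 ± 11.7 TPM in knockdown libraries and 66.7 ± 0.503 TPM in control ones, -1.26, adjusted p = 0.0138) and Vasp (-0.88, adjusted p = 0.0329, and 0.319 with scaling). Of genes for cadherin trafficking and cleavage, 3 of 12 fell, on both scales, namely the protease Adam15 (-1.17, adjusted p = 0.00501), Cbll1 (the ubiquitin ligase Hakai, which acts on E-cadherin, -1.18, adjusted p = 0.00757) and the lipid kinase Pip5k1c (-1.36, adjusted p = 0.0168). Beta-catenin destruction complex genes gave 0 of 5. Of beta-catenin target genes, 6 of 11 were tested and 3 fell, on both scales, Ccnd1 (-1.58, adjusted p = 0.00239), Notum (-1.58, adjusted p = 0.00733) and Myc (-1.83, adjusted p = 0.0202), while Axin2, Lef1, Lgr5, Nkd1 and Sp5 were below the filter. Many of these genes have other regulators as well.

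Of the regulators of cadherin genes, 6 of 12 tested fell at 0 h, and with scaling 3 were called lower and 1 higher. The epithelial factors Elf3 (-1.53, limma adjusted p = 0.0118), Ovol1 (-1.24, adjusted p = 0.0150) and Grhl2 (13.6 ± 6.46 TPM in knockdown libraries and 27.9 ± 1.42 TPM in control ones, -1.08, adjusted p = 0.0353) were among them, beside Snai1 itself (-0.80, adjusted p = 0.0348). Snai2, a repressor related to Snai1, missed the threshold (66.3 ± 34.6 TPM in knockdown libraries and 129 ± 8.81 TPM in control ones, -1.13, limma adjusted p = 0.0518). Of Epcam partners and proteases, 3 of 7 tested fell (2 with scaling), among them Cd44 (-1.05, limma adjusted p = 0.0108, and 0.0679 with scaling) and Spint1 (an inhibitor of the protease matriptase, -1.35, adjusted p = 0.0406). No gene of the 9 lists was called higher at 0 h, and with scaling Twist1 was (0.57, adjusted p = 0.0236) and so was Rab11a of the trafficking list (0.95, adjusted p = 0.0241). At 36 h Snai1 was the only gene of the lists that was called. With scaling, Zyx (-0.72, limma adjusted p = 0.0106), Cbll1 (-0.80, 0.0244), and Elf3 (-1.08, 0.0204) were among those called lower at 36 h too. By limma on the TPM as deposited, no gene of the lists was called over time in either line.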

How the data were processed

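Stranded mRNA libraries of 12 HC11 samples were sequenced by the submitters. The deposited table gives TPM computed by the authors, with a gene length in bases and the authors' mean columns, which were not used. The mean for control at 36 h covers 2 of its 3 libraries, and another column equals library 4. HISAT2 2.2.1, HTSeq, DESeq2, FastQC, cutadapt 1.9.1 and build GRCm39 are named in the submitters' processing notes, and which of them made the TPM is not given in the sources used here. TPM keeps no read depth, so no counting error is given. A fixed total means that a few abundant transcripts can lower all other values in a library.

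Groups came from the sample titles. Genes reaching 1 TPM in 3 or more of the 12 libraries were kept, 1 was added before log2 (which understates changes of low genes such as Cdh3), and 1 mean per group was fitted with limma 3.58.1 (variance trend) under R 4.3.3 for 5 comparisons. P-values are two-sided, with Benjamini-Hochberg adjustment over all genes tested. The script was tested on simulated data. The 10 genes, the lists and the named-gene rule (all members, Snai1, up to 4 called genes per list, 3 nearest profiles per gene) were chosen with earlier results of these data known. There were 21 alternatives: pseudocount 0.1, no filter, a 5 TPM filter, median-of-ratios scaling, the replicate block (alone, and with scaling, added after seeing the data), no trend, only the groups compared, each of 12 libraries left out, and knockdown 0 h library 2 left out with scaling. Results for some genes of the lists and among the nearest profiles are not reported here.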

Additional observations from a re-analysis of the deposited data

How the results depend on the processing

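Of the 10 genes, the number called in knockdown minus control at 0 h was 5 as reported, 3 with median-of-ratios scaling, 2 with no filter, 2 with the replicate block, 2 with the block and scaling, and 0 with only the groups compared (limma, 16 of all genes called there). It was 4 with scaling and without knockdown 0 h library 2, beside 3270 of all genes. Leaving out 1 library gave 2 to 8. At 36 h it was 0 as reported, 2 with scaling, 3 with scaling and without knockdown 0 h library 2, 4 with only the groups compared, and 0 to 5 with 1 library left out. Over time it was 0 as reported, 1 in control and 1 in the knockdown with scaling and without knockdown 0 h library 2, 1 in control with only the groups compared, and 0 to 1 with 1 library left out in each. Ctnna1 and Cdh3 kept their 0 h call in 20 of 21 alternatives each and lost it with only the groups compared (adjusted p = 0.0941 and 0.0719). The cause was not tested. Over all genes, 2550 were called at 0 h as reported, 1258 with no filter, 1011 with the block and 755 to 5869 with 1 library left out, and at 36 h 365 as reported and 24 to 2699 with 1 library left out. No pairing by replicate number was seen in the values, which does not show that the samples were unpaired. Over 15 same-numbered pairs the correlation of deviations ran from -0.29 to 0.13, and a library correlated best with its own number in 8 of 30 cases.

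The directions that turned belong to changes that were not called as reported. With scaling these were Afdn (0.34) and Nectin1 (0.25) at 0 h, Ctnna1 (-0.08), Ctnnb1 (-0.17) and Nectin1 (-0.34) over time in the knockdown, and Ctnnb1 in the difference of changes (-0.12). The block with scaling gave the same values, except -0.15 for the last, and -0.01 for Cdh3 over time in control. The block alone gave 0.00 for Cdh1 at 36 h and -0.09 for Cdh3 over time in control. Scaling without knockdown 0 h library 2 gave 0.02 for Afdn at 0 h, -0.01 for Cdh1 and -0.14 for Ctnna1 over time in the knockdown, and -0.08 for Epcam in the difference. With 1 library left out, the lowest and highest values were -0.66 and 0.11 for Nectin1 at 0 h. They were -0.60 and 0.00 for Cdh1 and -0.38 and 0.04 for Nectin4 at 36 h. Over time in control they were -0.39 and 0.21 for Cdh1, -0.11 and 0.34 for Cdh3, -0.13 and 0.06 for Ctnnb1, -0.21 and 0.26 for Ctnnd1 and -0.30 and 0.12 for Nectin4, and in the knockdown -0.05 and 0.63 for Ctnna1, -0.29 and 0.48 for Nectin1 and -0.71 and 0.27 for Epcam.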
